A study of Mus musculus with 3 samples.

Results

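The H/ACA small nucleolar RNAs and the small Cajal body RNAs of mouse were taken as all genes whose GENCODE M21 symbol begins with Snora or Scarna followed by a digit. This rule found 51 of 55536 annotated genes, of which 42 were Snora and 9 were Scarna. They carried 49 symbols, since Snora16a and Snora43 each stand for 2 gene identifiers. GENCODE M21 placed 44 of them in its snoRNA class and 7 in its scaRNA class. Their annotated lengths ran from 70 to 414 nt, with a median of 133 nt. The rule uses the symbol alone and no measured value.

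The RNA came from the cytosolic fraction of macrophages that had been grown from the bone marrow of C57BL/6J mice (BMDM). All 3 libraries belonged to 1 group, in which the cells had received 100 ng/ml lipid A for 50 min. Lipid A, the lipid part of the lipopolysaccharide of bacteria, is sensed through Toll-like receptor 4. No unstimulated sample was analysed here, so the response to lipid A cannot be read from these values, and the comparisons are among genes and among libraries. Total RNA was depleted of ribosomal RNA before sequencing. The libraries shared 1 donor label and were marked as biological replicates, and the labels do not say whether separate animals or cultures gave them. The p-values therefore measure whether a gene's spread between these libraries, which may be technical, exceeds that of genes at a similar level.

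H/ACA RNAs are short noncoding RNAs that fold into hairpins and hold a pocket that pairs with a target RNA, where dyskerin, the catalytic protein of the complex, turns a uridine into pseudouridine. The Snora RNAs work mainly on ribosomal RNA in the nucleolus. The Scarna RNAs lie in the Cajal body, a nuclear compartment, and modify spliceosomal RNAs, and most vertebrate members of both kinds are cut out of introns of other genes.

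The sequences of the 6 members with the most reads are shown first, since the results turn on them, followed by Snora31 and Snora78, short members on which the authors' 2 quantifications placed different numbers of reads. All are from the GENCODE M21 transcripts (mm10), written 5′ to 3′ on the RNA strand with T for U. Capitals mark an ACA that ends 3 bases before the 3′ end, the position of the ACA box of an H/ACA RNA. Where that ACA is missing, capitals mark CTGA near the 3′ end, the letters of the D box of a C/D RNA. In Scarna RNAs capitals also mark TGAG, the letters of the CAB box that holds an RNA in the Cajal body. In Scarna6 the CTGA and the TGAG overlap as CTGAG. Of Scarna2 the last 100 bases are given (chr3:108554338-108554437, minus strand) and of Scarna10 the last 120 bases (chr6:125186359-125186478, minus strand), and the others are whole: Scarna13 (chr12:105031075-105031349, minus strand), Scarna6 (chr1:87784556-87784820, plus strand), Snora73a (chr4:132352775-132352979, minus strand), Snora73b (chr4:132352322-132352526, minus strand), Snora31 (chr14:75847905-75848034, plus strand) and Snora78 (chr17:24719676-24719803, minus strand).
Scarna2: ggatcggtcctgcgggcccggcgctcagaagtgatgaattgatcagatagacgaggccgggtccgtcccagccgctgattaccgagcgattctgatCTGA
Scarna10: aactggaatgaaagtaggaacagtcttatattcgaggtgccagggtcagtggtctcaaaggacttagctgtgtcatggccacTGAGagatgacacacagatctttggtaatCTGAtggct
Scarna13: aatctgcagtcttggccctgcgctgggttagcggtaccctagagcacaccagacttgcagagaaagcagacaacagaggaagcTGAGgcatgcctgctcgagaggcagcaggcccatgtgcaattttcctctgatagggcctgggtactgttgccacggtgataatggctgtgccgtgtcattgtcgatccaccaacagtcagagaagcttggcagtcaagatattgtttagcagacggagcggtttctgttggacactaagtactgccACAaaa
Scarna6: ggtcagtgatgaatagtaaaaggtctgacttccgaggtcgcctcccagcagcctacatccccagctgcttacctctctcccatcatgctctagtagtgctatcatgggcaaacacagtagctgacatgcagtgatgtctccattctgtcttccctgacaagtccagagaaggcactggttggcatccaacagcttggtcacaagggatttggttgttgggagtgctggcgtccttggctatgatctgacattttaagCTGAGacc
Snora73a: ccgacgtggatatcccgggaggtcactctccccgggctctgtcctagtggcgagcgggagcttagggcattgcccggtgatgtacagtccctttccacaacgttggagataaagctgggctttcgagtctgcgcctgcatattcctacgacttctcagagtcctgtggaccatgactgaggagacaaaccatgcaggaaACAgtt
Snora73b: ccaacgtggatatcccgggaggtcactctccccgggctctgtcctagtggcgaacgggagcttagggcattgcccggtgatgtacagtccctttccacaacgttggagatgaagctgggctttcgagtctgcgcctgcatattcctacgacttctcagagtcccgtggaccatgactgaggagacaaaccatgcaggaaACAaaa
Snora31: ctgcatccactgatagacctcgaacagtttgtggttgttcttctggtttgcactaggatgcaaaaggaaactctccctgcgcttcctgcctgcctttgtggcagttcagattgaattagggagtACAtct
Snora78: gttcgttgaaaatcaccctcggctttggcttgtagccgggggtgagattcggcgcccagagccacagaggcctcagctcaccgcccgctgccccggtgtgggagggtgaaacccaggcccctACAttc

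The sequences bear out the H/ACA label for most Snora members but for few Scarna members. An ACA ending 3 bases before the 3′ end was found in 35 of 42 Snora members (83.3%), in 2 of 9 Scarna members, in 0 of 99 genes of the C/D class with Snord symbols, and in 2.45% of all 141767 annotated transcripts. The Scarna members with it were Scarna13 and Scarna8. An ACA anywhere in the last 8 bases was present in 44 of 51 members. The H box, which lies between the hairpins, was searched as ANANNA at least 40 bases from either end and was found in 47 of 51 members (92.2%). The same letters were in 38.1% of the first 133 bases of protein-coding transcripts, so on its own this match separates little. They were in 22.2% of Snord genes, but an RNA too short for these margins cannot match. Many Snord genes, with a median of 84 nt, were too short, as were Scarna9 (70 nt) and Scarna17 (79 nt). The Snord share is therefore not a like background for this search.

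The letters of the C/D class marked a different set. CTGA within the last 15 bases was found in 5 of 9 Scarna members (Scarna10, Scarna2, Scarna6, Scarna17 and Scarna9), in 3 of 42 Snora members, in 92 of 99 Snord genes (92.9%) and in 7.11% of all transcripts. In human, SCARNA2, SCARNA9 and SCARNA17 are C/D guides of ribose methylation, SCARNA10 and SCARNA6 join a C/D and an H/ACA part in 1 RNA, and SCARNA13 is a tandem H/ACA RNA. TGAG was found in 8 of 9 Scarna members, all but Scarna2. These letters are frequent, with 27 of 51 members, 82 of 99 Snord genes (82.8%) and 51.7% of the first 140 bases of protein-coding transcripts holding them. The Scarna members of 265 to 414 nt have more places for a match than a window of 140 bases. All searches were on the RNA strand, a match is a description and not a site, and a missing match says only that the letters are not in that window.

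The libraries held 33044910 (library 1), 36769402 (library 2) and 36522216 (library 3) expected counts on genes, so a count of 0 allowed up to 0.0908, 0.0816 and 0.0821 CPM, which is 3 counts in the library and covers counting error only. This limit does not apply to RNAs too short for a fragment to be placed on them. The 6 macrophage markers had means of 30.9 to 6416 TPM, and the 3 T cell, 3 B cell and 3 fibroblast markers were at most 0.0367 TPM. Of the neutrophil markers Ly6g was at 0, Mpo was at 0.193 TPM and S100a8 was at 11.9 TPM. Levels are in TPM, which is abundance per length relative to all RNA of a library, and in CPM, which is expected counts scaled to the library total with no length in it. Values are given as mean ± SD with n = 3 libraries unless each library is given.

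Reads on the members came almost all from a few long RNAs. In the first of the authors' quantifications the 51 members held 798, 1778 and 729 expected counts, or 24.1, 48.4 and 19.9 CPM in libraries 1, 2 and 3. Scarna10, Scarna2 and Scarna13 alone held 96.7%, 93.1% and 84.6% of these counts. All members together made up 0.0225% ± 0.00522 of TPM. A count above 0 in any library was given to 15 of 51 members (29.4%), beside 20760 of 55536 genes (37.4%), and 36 were listed at 0 in all 3. A level of 1 TPM or more in each library was reached by 7 members (13.7%), beside 9570 genes (17.2%). The median of the mean TPM was 0 over the 51 members and 0 over all annotated genes. Over the 15 members with a count it was 6.16 TPM, and 0.62 TPM without library 3.

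Scarna10, an intron-encoded Cajal body RNA of 325 nt whose human counterpart guides modification of the U5 spliceosomal RNA, had the highest level. It had 356, 872 and 313 counts in libraries 1, 2 and 3, which the authors gave as 80.1, 126 and 48.0 TPM (84.8 ± 39.3). Library 2 was the highest on both scales and library 3 the lowest. It lies in an intron of Ncapd2, a condensin subunit, and overlaps the sense-intronic gene Gm28967, which had 0 counts.

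Scarna2 is the longest member at 414 nt and lies in no gene on its strand. Its counts were 359, 681 and 248 and its levels 44.8, 55.8 and 23.1 TPM (41.2 ± 16.6), again highest in library 2 and lowest in library 3. The authors' intervals for these levels within a library were 39.5 to 48.6, 50.6 to 58.9 and 19.9 to 25.4 TPM, so they do not overlap between libraries. For Scarna10 the intervals were 69.8 to 86.2, 116 to 132 and 41.3 to 51.9 TPM and likewise do not overlap. Such intervals hold the error within a library and not the spread between samples.

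Scarna13, which lies in the noncoding host gene Snhg10, had 57, 102 and 55 counts and 21.5, 24.1 and 12.8 TPM (19.5 ± 5.90). It overlaps Mir3069, which had 0 counts. Scarna6, in an intron of the autophagy gene Atg16l1, had 8, 40 and 17 counts and 3.43, 10.7 and 4.38 TPM (6.16 ± 3.93). Both had their highest value in library 2. The other 5 Scarna members, of 70 to 140 nt, had 0 counts in every library.

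Snora73a and Snora73b, whose human counterpart U17 takes part in cleavage of the ribosomal RNA precursor, were the Snora members with the most reads. Snora73b had 8.97, 37.3 and 47.9 counts and 11.5, 27.2 and 28.9 TPM (22.5 ± 9.62). Snora73a had 5.97, 34.4 and 22.9 counts and 7.62, 25.0 and 13.9 TPM (15.5 ± 8.82). Both were lowest in library 1, while library 3 was the highest for Snora73b and library 2 for Snora73a. The pair is identical at 198 of 205 aligned bases (96.6%), with a longest identical run of 56 bases, so how the reads were split between them is uncertain. Their sum does not depend on that split and was 14.9, 71.7 and 70.9 counts, or 0.452, 1.95 and 1.94 CPM. On the TPM scale, which takes length into account, the sum was 19.1, 52.2 and 42.8. Library 1 was thus lowest on both scales, and libraries 2 and 3 were nearly alike on CPM only. The antisense gene Gm17300 spans both and had 1.17, 30.2 and 2.46 counts, and since the strand setting is not given in the sources used here, reads of the pair and of Gm17300 cannot be told apart with certainty.

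Snora74a is an RNA of 196 nt in the noncoding gene AC121821.1 whose human counterpart guides modification of large-subunit ribosomal RNA. It had 3, 8.82 and 13.9 counts and 4.83, 7.94 and 10.1 TPM (7.62 ± 2.64). Of the members that reached 1 TPM in each library it was the shortest. It was lowest in library 1 and highest in library 3, and it overlaps an annotated microRNA gene.

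**Figure D1:**
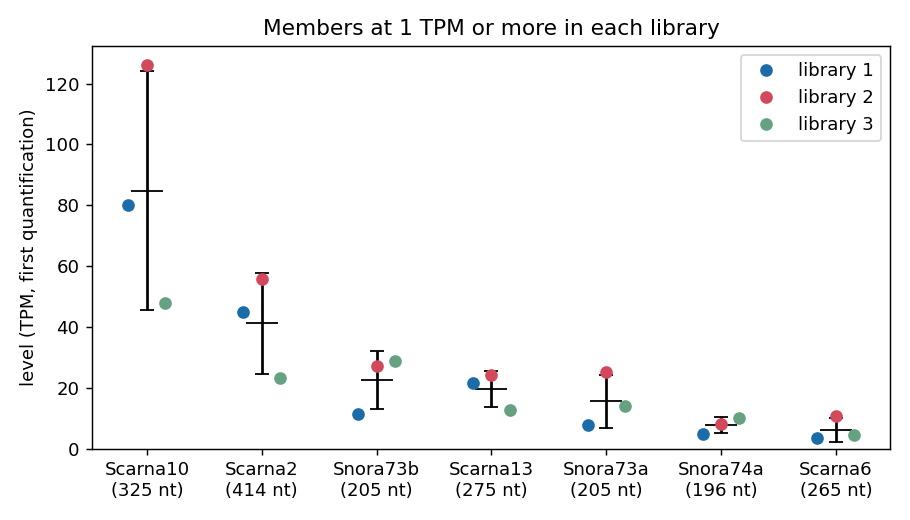
Levels of the 7 members that reached 1 TPM in each of the libraries, in TPM of the first quantification, with 1 coloured point per library and black bars for the mean ± SD of 3 libraries. Scarna10 has the highest mean (84.8 TPM), and library 2 lies highest for Scarna10, Scarna2, Scarna13, Scarna6 and Snora73a.

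Members with reads were mostly the longer ones. All 6 members of 200 nt or more had 1 TPM or more in each library, beside 9530 of 48705 annotated genes of that length (19.6%). All 3 members of 150 to under 200 nt (Snora74a, Snora23 and Snora81) had a count in some library, beside 67 of 900 genes (7.44%). Of the 42 members under 150 nt, 6 had a count in any library (14.3%) and 0 reached 1 TPM in each, beside 70 of 5931 genes under 150 nt with any count (1.18%) and 7 at 1 TPM in each. These members had a median of 132 nt and these genes of 106 nt, so the 2 shares are not matched for length. The 42 short members, among them most guides of ribosomal RNA, together held 0, 1.94 and 9.98 counts. The shorter Snord genes, with a median of 84 nt, had a count in any library for 4 of 99.

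**Figure D2:**
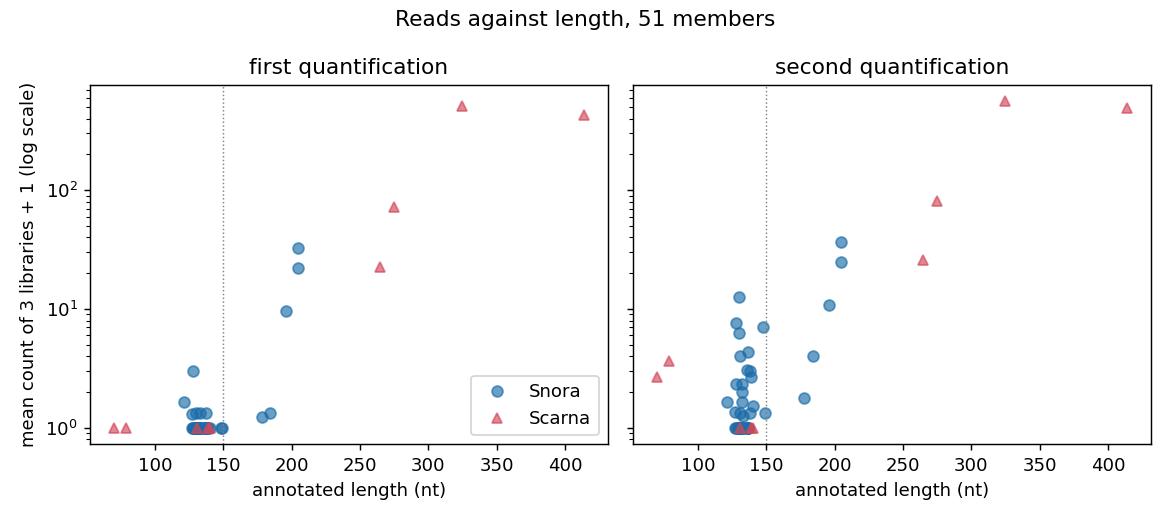
Mean expected count + 1 of the 51 members (log scale) against annotated length in nt, with circles for Snora and triangles for Scarna, the first quantification on the left and the second on the right. The dotted line marks 150 nt, and no member left of it has a mean count of 10 or more in the first quantification.

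The library fragments were longer than most members. The label gives a size range of 250 to 400, and the mean fragment length read from the authors' effective lengths of genes over 5000 bases was 229, 224 and 199 bases in libraries 1, 2 and 3. The effective length is the number of places in an RNA where a fragment can start, and it was 0 for 27, 15 and 3 of the 51 members in the 3 libraries. A member of 132 nt had an effective length of 0, 1.14 and 2.47. Scarna10 had 104, 109 and 132, so its levels rested on far more positions. Fewer fragments in the library, less RNA in the cells and more RNA left in the nucleus cannot be told apart for these members. No nuclear fraction was analysed here. In such bulk samples fewer cells with an RNA and less RNA per cell cannot be told apart either.

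**Figure D3:**
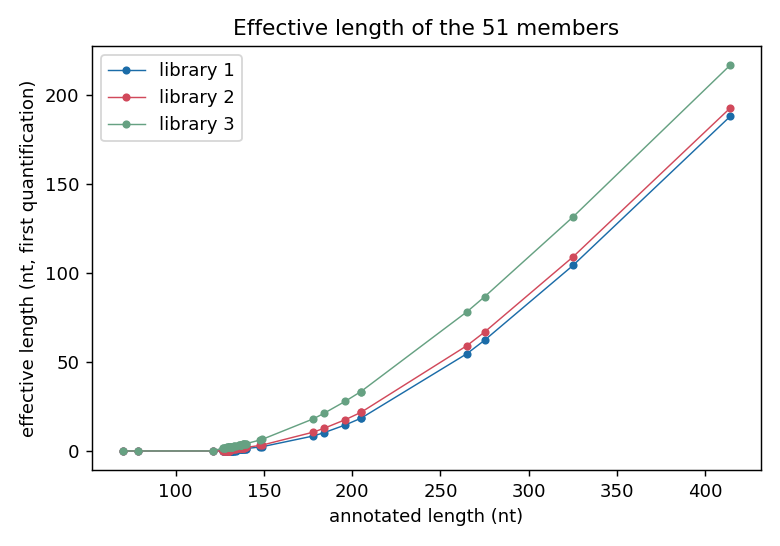
Effective length in nt of each of the 51 members in the first quantification against annotated length in nt, with 1 coloured line per library. Library 3 lies highest at every length with an effective length above 0, and most members under 150 nt lie at or near 0.

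The TPM values of the short members rested on these very short effective lengths. Snora78, of 128 nt, in the noncoding gene Snhg9 and antisense to the ribosomal protein gene Rps2, had 0, 0 and 6 counts. In library 3 its effective length was 1.82, and 6 counts were given as 66.4 TPM, with an authors' interval of 25.3 to 132 TPM. In the same library 313 counts on Scarna10 were given as 48.0 TPM. Snora9, in Snhg15, had 0.98 counts and 7.44 TPM in library 3, and Snora21, in the ribosomal protein gene Rpl23, had 1 count and 5.87 TPM there, and both had 0 in the other libraries. Snora31 and Snora28 in library 2 and Snora26 in library 3 had 1, 0.94 and 2 counts at an effective length of 0 and were given 0 TPM. The remaining members with a count, Snora23 (0, 1 and 0) and Snora81 (0, 0 and 0.74), had at most 1 count in a library.

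The second quantification listed more of the short members. It gave a count to 31 of 51 members, 16 of which had 0 in the first, and 20 members were at 0 in both. Snora31, in an intron of Tpt1, was the short member with the most reads there and is named here after its values were seen. It had 10, 19 and 6 counts and 4.86, 5.29 and 1.23 TPM (3.79 ± 2.23) in the second quantification, and 0, 1 and 0 counts in the first. Snora78 had 1, 7 and 12 counts in the second, and thus reads in every library, with library 3 the highest in both. Since it lies antisense to Rps2 and the strand setting is not given, its reads and those of Rps2 cannot be told apart with certainty. Also chosen after their values were seen, Snora57 had 8, 7 and 3 counts, Snora30 had 3, 9 and 4, and Snora69 had 8, 0 and 1, all of them at 0 in the first. Snora57 lies antisense to Lbhd1, which limits its value in the same way as for the Snora73 pair. The 7 members with a mean count of 10 or more in the second were the 6 with the most reads in the first and 1 under 150 nt.

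The levels of the long members were lower in the second quantification, as were those of most genes. The log2 difference in mean TPM, second minus first, was -2.62 for Snora73b, -2.61 for Snora73a, -1.89 for Scarna6, -1.86 for Scarna13, -1.68 for Scarna10 and -1.47 for Scarna2. The median over 9546 genes at 1 TPM or more was -1.50. Scarna10 was the highest member in both, with 26.5 ± 14.9 TPM in the second, followed by Scarna2 with 14.9 ± 8.53. The Snora73 pair thus stood 1 log2 unit or more below the median of the 9546 genes and the long Scarna RNAs within 0.5 of it. The counts of these members were not lower in the second. Snora73b had 14.5, 37.5 and 55.7 counts there, beside 8.97, 37.3 and 47.9 in the first. Its effective length was 42.2, 49.7 and 57.5 nt in the second and 18.4, 21.7 and 33.4 nt in the first. How much of the TPM difference this accounts for was not tested. Over all members the share of TPM was 0.0225% in the first and 0.00729% in the second.

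Variation between libraries was tested with edgeR over all genes. Of 12231 genes tested, 203 were called at an adjusted p under 0.05, which is 1.66%, and 785 had an unadjusted p under 0.05. The filter on low counts kept 3 of the 51 members, of which Scarna10 and Scarna2 were called. For Scarna10 the log2 CPM were 3.42 (library 1), 4.61 (library 2) and 3.08 (library 3), and the edgeR adjusted p was 9.8e-06. Scarna2 had 3.43, 4.25 and 2.74 and an edgeR adjusted p of 0.00056. Scarna13 had 0.79, 1.52 and 0.58, the same order of libraries as Scarna10, and was not called with an edgeR adjusted p of 1. The calls rested on library 2. Without it neither member was called (edgeR adjusted p of 1 for Scarna10 and 0.996 for Scarna2), and without library 3 Scarna10 was called (0.014) and Scarna2 was not (0.433).

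With all 3 libraries, further members were tested only with the filter off. Without library 1 the filter also kept Scarna6 and the Snora73 pair, none of which was called. The 36 members at 0 in all libraries were not tested. With no filter on low counts, 15 members were tested and the same 2 were called, beside 221 of 20709 genes. For variation over the 3 libraries, Snora73b had an unadjusted edgeR p of 0.0376 (adjusted 0.801), Snora73a had 0.0704 (0.922) and Snora78 had 0.0189 (0.585). Of the 15 members with a count, 8 had their highest CPM in library 2, 7 in library 3 and 0 in library 1. For Snora9, Snora21, Snora23, Snora26, Snora28, Snora31 and Snora81 this rested on at most 2 counts. The effective length was 0 for 27, 15 and 3 members in libraries 1, 2 and 3, so the libraries were not alike in where short members could be counted. The same tally over all genes was not made.

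The order of the libraries differed among the members with reads. Scarna10 was 2.20 times as high in library 2 as in library 1 on the CPM scale and 2.77 times as high as in library 3. The corresponding ratios were 1.70 and 2.73 for Scarna2, 1.61 and 1.84 for Scarna13, and 4.49 and 2.34 for Scarna6. Library 2 was the highest for each of these 4 Scarna RNAs, whose summed counts were 780, 1695 and 633. Library 3 was the lowest for Scarna10, Scarna2 and Scarna13, and library 1 for Scarna6. Snora73b was 3.74 times as high in library 2 as in library 1 but 0.773 times as high as in library 3, and Snora74a gave 2.64 and 0.628. Snora73a, with ratios of 5.18 and 1.49, was highest in library 2. These 3 Snora RNAs had their lowest values in library 1, at 3, 5.97 and 8.97 counts. Their effective length was greatest in library 3, which CPM does not take into account. For the Snora73 pair it was 18.4, 21.7 and 33.4 nt in libraries 1, 2 and 3.

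Nuclear long noncoding RNAs were also highest in library 2. Malat1, Neat1, Xist, Kcnq1ot1 and Firre made up that list. The planned list held Rn7sk and Rpph1 and not Firre. All 5 RNAs of the list used had their highest CPM in library 2 and were called by edgeR, and none was at 0. Malat1, an RNA of nuclear speckles, was 2.37 times as high in library 2 as in library 1 and 4.65 times as high as in library 3, and Neat1, the scaffold of paraspeckles, gave 2.62 and 3.21. Summed over the list, the level was 686, 802 and 240 TPM in libraries 1, 2 and 3. The small nuclear RNAs were not all of this order. Rn7sk, an RNA that binds an elongation factor, gave ratios of 1.08 and 4.16. Rpph1, the RNA of the RNase P complex, was highest in library 1, with ratios of 0.828 and 3.19, and was called (edgeR adjusted p of 3.45e-06). Of the 2 gene identifiers of Rmrp, the RNA of the RNase MRP complex, the plotted one gave 1.76 and 3.20, and the other was at 469, 488 and 554 CPM, highest in library 3, and was not called (edgeR adjusted p of 1). Of the 6 macrophage markers, 0 had their highest CPM in library 2. The part of nuclear RNA in the cytosolic fraction in the Scarna values was not tested.

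**Figure D4:**
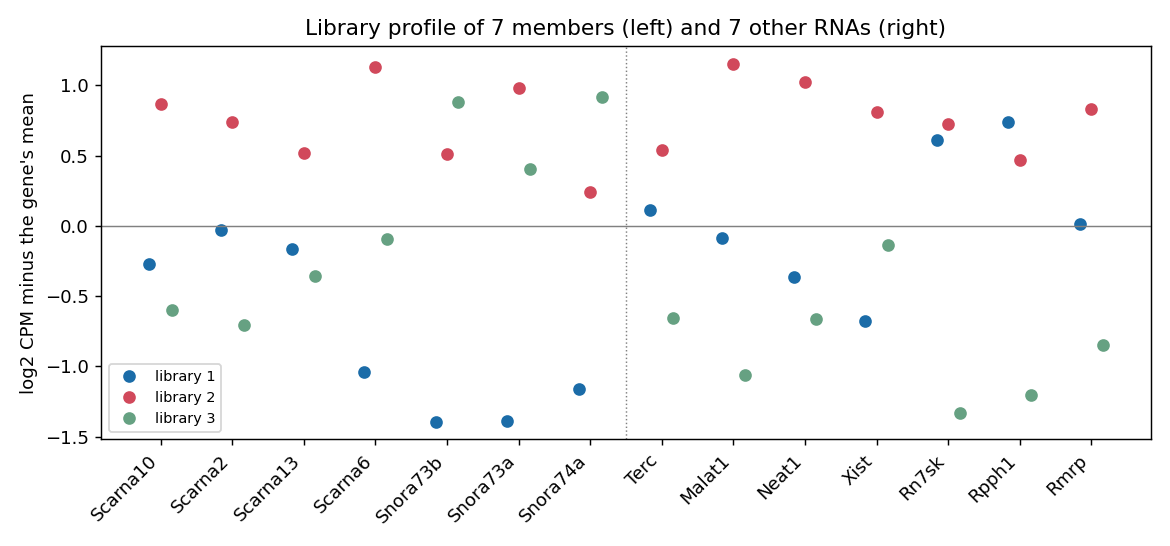
log2 CPM of each library minus the mean over the 3 libraries, for the same 7 members on the left of the dotted line and 7 other noncoding RNAs on the right, with 1 coloured point per library. Library 2 is highest for the 4 Scarna RNAs, Snora73a, Terc, Malat1, Neat1, Xist, Rn7sk and Rmrp, library 1 is highest for Rpph1, and among the members library 1 is lowest for the 3 Snora RNAs and Scarna6.

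Host genes had reads where their short RNAs had none. Both were read in the cytosolic fraction only, so RNA left in the nucleus is not covered. Most members were also under 150 nt with an effective length at or near 0, so few fragments could be placed on them at any level. A host was taken as the shortest gene on the same strand that spans the member, and 45 of 51 members had one, 32 in protein-coding and 13 in noncoding genes, with 40 different hosts. In 40 of these 45 pairs the host reached 1 TPM in each library, and the median host level over the pairs was 9.94 TPM. The median difference between member and host was -3.30 ± 0.42 (SD, n = 3 libraries) on the log2(TPM + 1) scale. Most members were at 0, where the difference is set by the host level and the pseudocount alone. The median therefore mostly describes the hosts, and it was -6.35 with a pseudocount of 0.1 and -5.78 on CPM. The 11 members in ribosomal protein genes had hosts of 145 to 686 TPM with a median of 326 TPM, and 1 of the 11, Snora21, had any count in the first quantification and 4 in the second. Over all 42 members under 150 nt, which include these 11, 6 had any count in the first (14.3%) and 22 in the second. The noncoding gene Snhg12, at 3.69 ± 0.596 TPM, holds 4 members, and 0 of them had a count in either quantification. Snora35 lies in the serotonin receptor gene Htr2c, which was itself listed at 0 TPM in each library. Snora31 had 0 TPM in the first quantification beside 1410 ± 305 TPM of its host Tpt1.

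In 7 pairs the member had the higher mean level. Scarna10 had 84.8 TPM beside 3.23 ± 1.63 TPM of Ncapd2, a difference of 4.34 on the log2(TPM + 1) scale. Scarna13 had 19.5 TPM beside 0.390 ± 0.040 TPM of Snhg10 (3.88), and Snora74a had 7.62 TPM beside 0.467 ± 0.127 TPM of its host (2.56). The Snora73 pair lies in introns of Snhg3, a noncoding gene that shares its strand and region with Rcc1, a regulator of Ran. Snhg3 had 10.1, 4.22 and 5.79 TPM in libraries 1, 2 and 3, so it was highest in the library in which the pair, at 19.1, 52.2 and 42.8 TPM, was lowest. Snora73a alone, at 7.62 TPM, was below Snhg3 in library 1. Scarna6 had 3.43, 10.7 and 4.38 TPM beside 5.14, 4.25 and 4.96 TPM of Atg16l1, so its higher mean (0.31) rested on library 2, and in libraries 1 and 3 it was below its host. For Snora78 the higher mean (3.26) rested on library 3 alone.

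**Figure D5:**
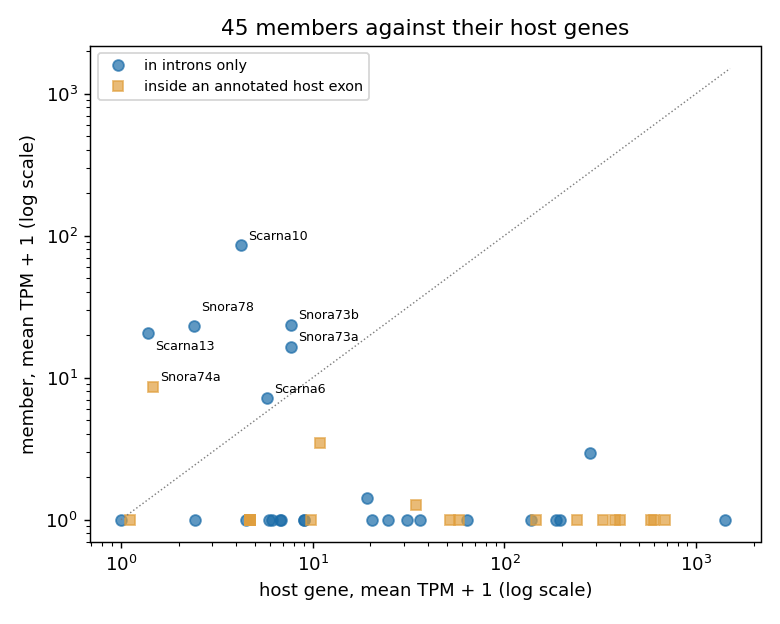
Mean TPM + 1 of 45 members against mean TPM + 1 of their host genes over 3 libraries (both log scales), with circles for members in introns and squares for members inside an annotated host exon. The 7 named members lie above the dotted line of equal level, and most others lie at 0 TPM whatever the level of the host.

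Reads of a member can also be counted to its host. An annotated exon of the host contained 19 members, mostly an exon of a transcript with a retained intron, and 5 of these 19 had any count beside 10 of the 32 others. The host transcripts with such exons were above 0 TPM for all 19 members, with a median of 0.163 TPM. A microRNA gene overlapped 8 members, among them Scarna3a, Scarna3b, Snora34 and Snora36b, and for these the reads could be counted to either gene.

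The mRNAs for the proteins of the H/ACA complex were at low to middle levels and were not called as varying. Protein was not measured. Dkc1, the pseudouridine synthase dyskerin, had 2.00, 1.35 and 1.60 TPM (1.65 ± 0.328). Nhp2 had 18.7, 15.8 and 18.6 TPM (17.7 ± 1.67), Nop10 had 9.77, 6.02 and 8.80 TPM (8.20 ± 1.95), and Gar1 had 7.43, 3.92 and 5.96 TPM (5.77 ± 1.76). All 4 core protein mRNAs were lowest in library 2 on the TPM scale, as was the sum of the macrophage markers (9198, 6057 and 8781 TPM). On the CPM scale Nhp2 was highest there (19.3, 21.9 and 21.1 CPM). The median of the core protein mRNAs was 6.98 TPM, and that of the mRNAs for the 4 core proteins of C/D RNAs was 12.5 TPM.

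The mRNAs of the 6 assembly factors, which include Naf1 and Shq1, were all at 1 TPM or more in each library, with a median of 4.46 TPM. Of 6 Cajal body genes 5 were, and the exception, Coil, the scaffold protein of the Cajal body, had 1.16 ± 0.250 TPM. Wrap53, which binds the CAB box, had 1.44 ± 0.314 TPM. Parn and Exosc10, which trim RNA 3′ ends, had 4.61 ± 0.790 and 11.9 ± 2.46 TPM. Of the 11 pseudouridine synthases that work without a guide RNA, 7 were at 1 TPM or more in each library, with a median of 2.20 TPM. Of 34 protein genes tested in these 6 lists, edgeR called 0, and 0 had an unadjusted p under 0.05, beside 1.66% called over all genes.

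The telomerase RNA Terc, an H/ACA RNA of 423 nt whose name falls outside the rule, had 20, 30 and 13 counts and 1.96 ± 0.696 TPM, and was highest in library 2 on the CPM scale like the long Scarna RNAs. It was not called (edgeR adjusted p of 1). Tert, the protein part of telomerase, had 0 counts in each library.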

How the data were processed

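Ribosome-depleted total RNA of the cytosolic fraction was measured in 3 libraries of 1 group. The authors deposited, per library, gene and transcript tables of expected counts and TPM against mm10 with GENCODE M21 (first quantification) and a second transcript table of estimated counts and TPM (second quantification), which was summed per gene here. Aligner, counting tools and strand setting: not given in the sources used here. Replicates were not pooled. TPM were used as deposited, and CPM are expected counts divided by the sum over annotated genes.

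For the variation test, expected counts were rounded and passed to edgeR 4.0.16 (R 4.3.3), which used filterByExpr, TMM factors, an intercept-only fit with trended dispersion, and chi-square goodness of fit of the residual deviance. P-values were adjusted over all 12231 genes by the Benjamini-Hochberg method at 0.05, and a prior count of 0.5 was used for log2 CPM. Simulated counts of 12231 genes were used for the variation between the 3 libraries. The test called 51 of 100 genes moved 2-fold, 100 of 100 moved 4-fold and 3 of 12031 unmoved. The moved genes were drawn only from those above a set mean count. Scarna13, with a mean count of 71.3, was above that limit, but the rates were not split by count and do not give the rate at its level. Snora73b, at 31.4, and all members with fewer reads were below the limit, so the rates for moved genes do not cover them. Host differences used a pseudocount of 1 TPM. The biological coefficient of variation was 0.147.

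Sequences, names and 1-based coordinates came from GENCODE M21 with Python 3.11.15, pandas 2.3.3, numpy 2.4.6, Biopython 1.88 and matplotlib 3.10.9. Named genes were the 10 members with the highest mean TPM, the 5 with the highest mean expected count, Scarna members with a mean count of 10 or more, members called as varying, the 3 with a mean count of 10 or more that differed most between quantifications, and the H/ACA core proteins. The members and lists were chosen with earlier results of these data known. Alternatives were other size factors, no filter, a common dispersion, each library left out, other detection limits, a pseudocount of 0.1, CPM in place of TPM, and the second quantification, plus an ACA search in the last 8 bases that was added after seeing the data.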

Additional observations from a re-analysis of the deposited data

How the results depend on the processing

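The count of members called as varying was 2 with other size factors, with no filter on low counts and with a common dispersion, and 0 to 2 when 1 library was left out. The lowest value came without library 2, when Scarna10 (edgeR adjusted p of 1) and Scarna2 (0.996) were not called, and without library 3 Scarna2 was not called (0.433). Over all genes 203 were called, 89 to 132 with 1 library left out, and 298 with a common dispersion. The edgeR adjusted p of Scarna10 ran from 1.52e-07 to 1 over its alternatives and that of Scarna2 from 4.74e-06 to 0.996. In each library 7 members reached 1 TPM, and those with an expected count of 10 or more in each numbered 3. The median TPM of members with a count was 6.16, 1.66 in the second quantification and 0.62 to 7.52 with 1 library left out, lowest without library 3. The members' share of TPM was 0.0225%, 0.00729% in the second quantification and 0.0198% to 0.0250% with 1 library left out. The median log2 difference from the host was -3.30, -6.35 with a pseudocount of 0.1, -5.78 on CPM, which is not per length, and -3.44 to -3.25 with 1 library left out. The mean TPM of each of the 6 members checked moved by more than 1 SD in the second quantification, and the cause was not tested. Snora74a, not among those 6, went from 7.62 to 1.19 TPM. The median host difference kept its sign under the alternatives run, as it must where most members are at 0. The order of libraries on the TPM scale changed for some members in the second quantification. Scarna2 was then at 20.0, 19.6 and 5.02 TPM in libraries 1, 2 and 3, and Scarna13 at 7.08, 6.64 and 2.31. Snora74a was at 1.34, 1.12 and 1.10 TPM. The counts of these members there kept the order of the first quantification. No paired analysis was possible because the series has 1 group. For members under 150 nt the effective length (0 for 27, 15 and 3 members in libraries 1, 2 and 3) limits the values as well as depth: Snora31 had 0 counts in library 1 in the first quantification and 10 in the second, more than the 3 counts that a count of 0 allows.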
